A study of Labeotropheus fuelleborni and Maylandia zebra with 12 samples.

Results

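The 5 genes described here act on collagen after its chains have been made: plod2 and serpinh1 in hydroxylation and folding, bgn and dcn as small leucine-rich proteoglycans, and sparc as a collagen-binding glycoprotein. They were taken from the deposited count table by exact gene name, and all 5 of 5 were present among 26490 features. No other feature carried any of these names with a copy suffix. RNA had been sequenced from unerupted replacement teeth and from taste bud epithelium of 2 Lake Malawi cichlids, Labeotropheus fuelleborni and Maylandia zebra, with 3 libraries in each of 4 groups. The groups were L. fuelleborni replacement tooth, M. zebra replacement tooth, L. fuelleborni taste bud and M. zebra taste bud. No treatment, genotype, age or sex is given for any group. Soft tissue outside the bone was taken off the jaw first, and teeth were then picked with forceps from crypts opened in the bone, so a tooth sample may include the soft tissue in its crypt. The taste bud samples were strips of whole epithelium cut from the lip side of the outer tooth row, with no step described that isolates taste buds from the strip. The labels call the libraries replicates without naming an animal for each, so the p-values reflect the spread between these libraries only, and that spread may be technical.

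Collagen is modified, folded and cross-linked by a dedicated set of proteins. In the endoplasmic reticulum, hydroxylases act on proline and lysine residues of the new chains, and the chaperone HSP47 holds the folded procollagen until it leaves for the Golgi. Outside the cell, small proteoglycans and glycoproteins bind the fibrils and influence how they assemble and mineralize. In mammals these proteins are abundant in dentin, bone and other connective tissue, and human or mouse mutations in several of them give brittle bone or fragile skin.

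Libraries held 72226 to 300663 counts. Levels are given as CPM, the counts of a gene relative to the library size after TMM scaling, and a single count amounted to 3.02 CPM in the deepest library and 14.4 CPM in the shallowest by that size. L. fuelleborni tooth replicate 4 was the deepest library. It also had 6.54% of its counts in ribosomal protein genes, against 2.45% and 2.48% in replicates 0 and 3 of its group. Odontoblast and keratinocyte markers followed the labelled tissues, and taste receptor markers went both ways. Of all genes tested, 32.6% were called higher in tooth and 20.2% lower. All 7 tested of 10 odontoblast and osteoblast markers were higher in tooth, with summed levels of 1330.3 to 7044 CPM in tooth libraries and 0 to 158 CPM in taste bud libraries, and bglap was at 0 throughout. The collagen gene col10a1 alone held 2578 of their tooth counts. All 8 tested of 8 oral keratinocyte markers were lower in tooth, with sums of 123 to 461 CPM in tooth and 852 to 4046 CPM in taste bud. Of 9 taste receptor cell markers, 3 were tested, of which trpm5 and ddc were lower in tooth and itpr3 was higher, while plcb2, not tested, had 32 tooth counts against 2. The sums of the list were 604 to 901 CPM in tooth and 1006 to 3728 CPM in taste bud, with trpm5 alone holding 1320 of the taste bud counts, and calhm3 and pkd2l1 were at 0 throughout. The library kit keeps strand, but which strand was counted is not stated, so counts of a gene below and of any gene opposite it cannot be told apart.

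All 5 genes were higher in tooth than in taste bud, in both species. For each of them the lowest of the 6 tooth libraries lay above the highest of the 6 taste bud libraries, as for 20.1% of the 2962 genes tested. All 5 passed the filter on low counts. Because tooth libraries alone could satisfy that filter, the count of 5 is no more than a description. The libraries of a single tissue could also admit a marker above or a list gene below, so their counts of calls are descriptions too. With edgeR's quasi-likelihood test over both species, all 5 passed an adjusted p of 0.05 as higher in tooth, against 32.6% of all genes tested. Their median log2 fold change (log2FC) was 5.58, and was also 5.58 with the lower bounds of plod2 and bgn, whose taste bud counts were 0, in place of their fitted values. The median of all genes tested was 0.21. That median was 0.41 with DESeq2 size factors and 0.54 with library totals. The smallest log2FC of the members, that of serpinh1, was 4.74 and 4.84 in these fits and 4.55 with TMM factors. A shift shared by all these scalings was not tested.

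**Figure D1:**
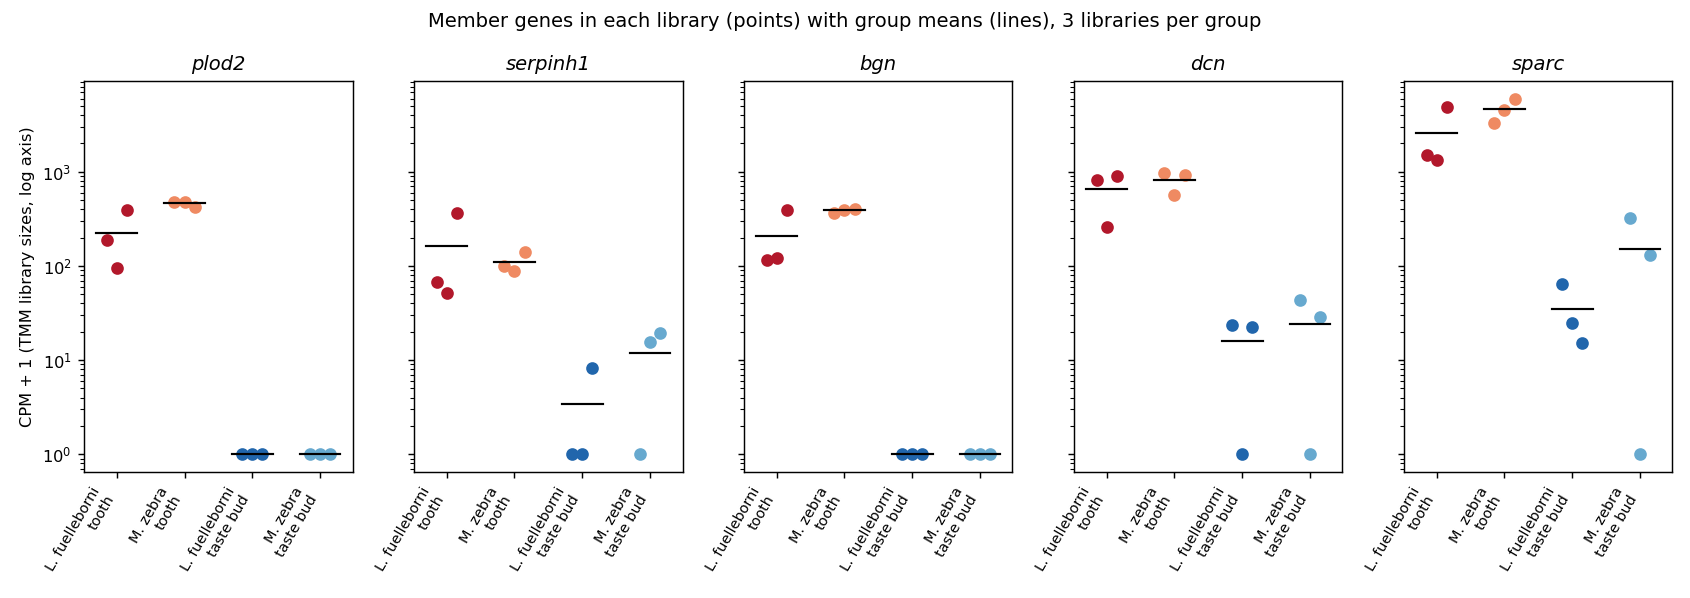
CPM + 1 on a log axis for each of the 5 genes, with 1 point per library and a line at the mean of each group of 3 libraries. Tooth libraries lie above taste bud libraries for every gene. plod2 and bgn are at 0 CPM in all 6 taste bud libraries, and L. fuelleborni tooth replicate 4, the rightmost point of its group, stands above replicates 0 and 3 for each gene.

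The gene plod2 encodes lysyl hydroxylase 2, which in mammals modifies lysines at the ends of collagen chains and so sets the kind of cross-link found in bone and dentin. In L. fuelleborni tooth its level was 189, 93.0 and 389 CPM in replicates 0, 3 and 4, and in M. zebra tooth it was 479, 478 and 422 CPM in replicates 0, 1 and 3. No read was counted at plod2 in any taste bud library, a property shared by 3.75% of the genes tested. The 3 M. zebra tooth libraries lay within a narrow range, while those of L. fuelleborni spread widely and all lay below the lowest M. zebra library. By summed counts, plod2 was at least 48.8-fold higher in L. fuelleborni tooth than in its taste bud. It had 165 tooth counts there, 129 of them in replicate 4, against 0. In M. zebra, with 281 tooth counts against 0, it was at least 37.9-fold higher. These bounds set the taste bud group at 3 counts, or 5.71 CPM in L. fuelleborni taste bud and 12.1 CPM in M. zebra taste bud, and cover counting error only. The tests within species gave adjusted p = 4.38e-06 in L. fuelleborni and adjusted p = 5.04e-06 in M. zebra (edgeR), where 24.6% and 26.9% of all genes tested were called higher in tooth. All 5 genes passed in each species.

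The gene serpinh1 encodes HSP47, the collagen-specific chaperone of the endoplasmic reticulum. Its tooth levels were 65.7, 50.1 and 365 CPM in L. fuelleborni and 99.2, 88.2 and 141 CPM in M. zebra. In taste bud they were 0, 0 and 7.18 CPM in L. fuelleborni replicates 1, 2 and 4, and 0, 14.4 and 18.5 CPM in M. zebra replicates 1, 2 and 3. A single L. fuelleborni tooth library, replicate 4, exceeded the others of its group combined, and the taste bud values rest on 4 counts in all. Summed over both species, serpinh1 was 32.7-fold higher in tooth, from 204 tooth counts against 4 (95% counting interval 12.6 to 121). The edgeR log2FC was 4.55 (SE 0.72, adjusted p = 6.95e-06). Within L. fuelleborni, 136 counts in tooth stood against 1 in taste bud, a ratio of 121 with an interval of 21.3 to 4798. Within M. zebra it was 68 against 3, a ratio of 9.17 with an interval of 3.01 to 45.6. The log2FC within species was 5.96 in L. fuelleborni (SE 1.06, adjusted p = 7.41e-05) and 3.13 in M. zebra (SE 0.97, adjusted p = 0.0111). This was the smallest tissue difference among the 5 genes in M. zebra. Within L. fuelleborni it did not pass once the 3 libraries with the most ribosomal protein counts were removed (log2FC 2.86, SE 1.27, adjusted p = 0.109). These were replicate 4 of L. fuelleborni tooth and replicates 1 and 2 of its taste bud. That edgeR fit kept 1 L. fuelleborni taste bud library, assumed to vary like the other groups, and over all 20 alternative fits the adjusted p ranged from 5.94e-07 to 0.109.

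Biglycan (bgn) and decorin (dcn) are small proteoglycans whose protein cores are built of leucine-rich repeats and carry glycosaminoglycan chains; in mammals both bind collagen, and biglycan is prominent in bone. The level of bgn was 115, 122 and 389 CPM in L. fuelleborni tooth and 368, 394 and 404 CPM in M. zebra tooth, with no count in any taste bud library. The M. zebra tooth libraries differed little from each other, and L. fuelleborni replicate 4 fell inside their range. The bgn ratio was at least 47.3-fold in L. fuelleborni (160 tooth counts against 0, adjusted p = 5.75e-06 in edgeR), with 129 of the 160 in replicate 4. In M. zebra the ratio was at least 32.4-fold (240 against 0, adjusted p = 9.08e-06 in edgeR).

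Decorin was detected in taste bud, at low counts. The tooth levels of dcn were 813, 257 and 902 CPM in L. fuelleborni and 975, 562 and 919 CPM in M. zebra. Its taste bud levels were 22.9, 0 and 21.5 CPM in L. fuelleborni and 42.0, 0 and 27.8 CPM in M. zebra, from 13 counts in all. In each species 1 taste bud library had no dcn count, replicate 2 in both. Over both species dcn was 45.9-fold higher in tooth (931 tooth counts against 13, interval 26.7 to 86.6, log2FC 5.28, SE 0.55, adjusted p = 1.29e-08). The ratio was 55.0 in L. fuelleborni (26.5 to 138) and 33.5 in M. zebra (15.3 to 91.8), with adjusted p = 4.47e-06 and adjusted p = 1.75e-05. Its log2FC was 5.50 (SE 0.77) in L. fuelleborni and 5.05 (SE 0.79) in M. zebra. Of the 434 L. fuelleborni tooth counts of dcn, 299 were in replicate 4.

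SPARC, also called osteonectin, is a secreted glycoprotein that binds calcium and collagen and is among the abundant non-collagen proteins of mammalian bone and dentin. It had 4898 counts in tooth. Its levels were 1519, 1344 and 4925 CPM in L. fuelleborni tooth and 3332, 4488 and 5956 CPM in M. zebra tooth. In taste bud they were 62.9, 23.6 and 14.4 CPM in L. fuelleborni and 322, 0 and 129.8 CPM in M. zebra. The M. zebra taste bud libraries ran from no count to the highest taste bud level of the gene. Replicate 4 held 1632 of the 2005 L. fuelleborni tooth counts of sparc, and the intervals cover counting error only. By summed counts sparc was 98.8-fold higher in tooth in L. fuelleborni (62.3 to 167, log2FC 6.23, SE 0.84, adjusted p = 2.66e-06 in edgeR). In M. zebra it was 31.6-fold higher (22.9 to 45.0, log2FC 4.93, SE 0.78, adjusted p = 2.09e-05).

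**Figure D2:**
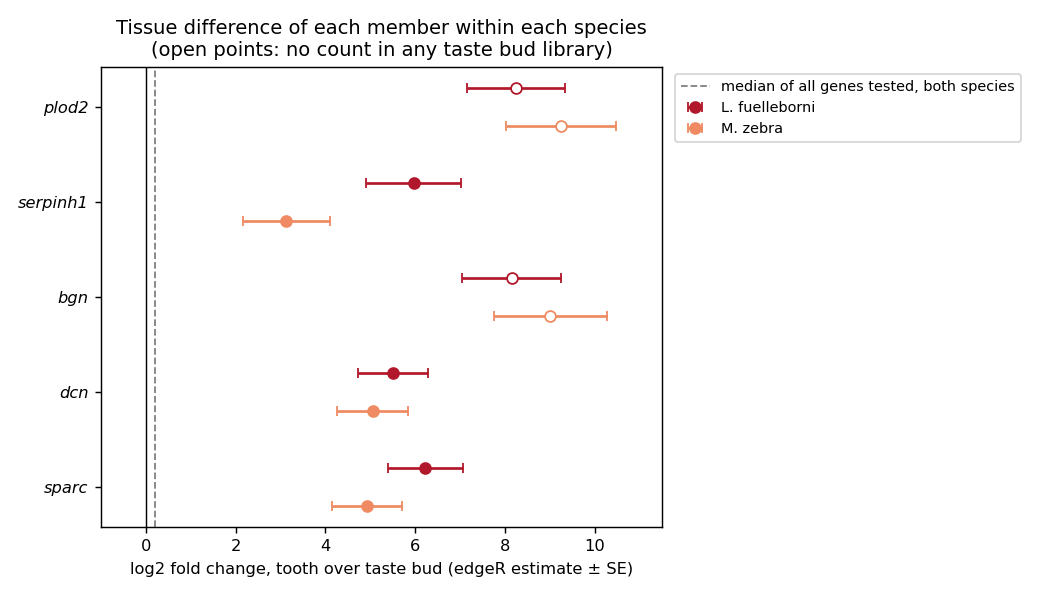
log2 fold change of tooth over taste bud for each gene in L. fuelleborni and in M. zebra, as edgeR estimates with SE, and the median of all genes tested over both species as a dashed line at 0.21. All 10 estimates lie between 3.13 and 9.25. Open points mark plod2 and bgn, whose taste bud counts were 0, so that their fitted values are not bounds.

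The tissue difference was then compared between the species through the interaction term. None of the 3 genes with taste bud counts passed with edgeR (0 of 3, also 0 at an unadjusted p under 0.05, and 0 with DESeq2 and with limma), nor did any of the 2962 genes tested (0%). The interaction was 2.83 for serpinh1 (SE 1.68, adjusted p = 0.694), 1.30 for sparc (SE 1.02, adjusted p = 0.746) and 0.45 for dcn (SE 1.09, adjusted p = 0.945), on the log2 scale. Standard errors of this size leave room for differences of several fold between the species. For plod2 and bgn the interaction could not be estimated because both taste bud groups were at 0.

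Levels in tooth were next compared between the species. The mean in L. fuelleborni tooth was below that in M. zebra tooth for plod2 (224 ± 151 CPM against 459.5 ± 32.5, SD, n = 3 each), bgn (209 ± 157 against 389 ± 19.0), dcn (658 ± 349 against 818 ± 224) and sparc (2596 ± 2019 against 4592 ± 1315). For serpinh1 it was above (160.3 ± 178 against 109 ± 27.7). None of the 5 genes passed the test with edgeR (0 of 5, also 0 at an unadjusted p under 0.05, and 0 with DESeq2 and with limma), where 1.52% of all genes tested passed. The closest was plod2, with a log2FC of -1.01 (SE 0.55, adjusted p = 0.654 in edgeR). It was also the only one of the 5 genes whose L. fuelleborni tooth libraries all lay on one side of all M. zebra tooth libraries, as for 14.3% of the genes tested in one direction or the other.

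Within L. fuelleborni tooth, replicate 4 had the highest level of all 5 genes. Relative to the pooled counts of replicates 0 and 3, its level was 6.37-fold for serpinh1, 3.45-fold for sparc, 3.29-fold for bgn, 2.83-fold for plod2 and 1.75-fold for dcn, against a median of 1.08 over all genes tested. Of all genes tested, 97.4% had a lower ratio than serpinh1, 89.6% than sparc, 87.8% than bgn, 83.9% than plod2 and 67.4% than dcn. The share of genes with their highest level in replicate 4 was not counted. The type I collagen chains moved in the same direction as the members, at 4.45-fold for col1a1 and 4.43-fold for col1a2. In replicate 4 the odontoblast and osteoblast markers summed to 7044 CPM, against 1330.3 and 1466 CPM in replicates 0 and 3. Most of the 7044 CPM came from 1 collagen gene, col10a1, at 5124 CPM. Markers of fibroblasts and dermal mesenchyme summed to 3006 CPM, against 895 and 715 CPM. Most of the 3006 CPM came from the matrix genes col6a1, col6a2 and lum, at 887, 1240 and 561 CPM. In a bulk sample, a difference in the share of matrix-producing cells and a difference in RNA per cell cannot be told apart. The part of these markers, of depth and of the ribosomal share in the members' levels was not tested.

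Without that library the species difference in tooth was larger for 4 genes and turned for the fifth. The log2FC became -1.71 for plod2 (SE 0.57), -1.71 for bgn (SE 0.56), -1.68 for sparc (SE 0.69) and -0.62 for dcn (SE 0.62). For serpinh1 it became -0.92 (SE 0.67), against 0.61 (SE 0.66) with all libraries. None passed after adjustment in this edgeR fit, with adjusted p from 0.218 to 0.684, and over all 21 alternative fits the adjusted p of the 5 genes ranged from 0.132 to 1. Without L. fuelleborni tooth replicate 3 the log2FC of dcn was 0.07 (SE 0.61), against -0.31 (SE 0.57) with all libraries.

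**Figure D3:**
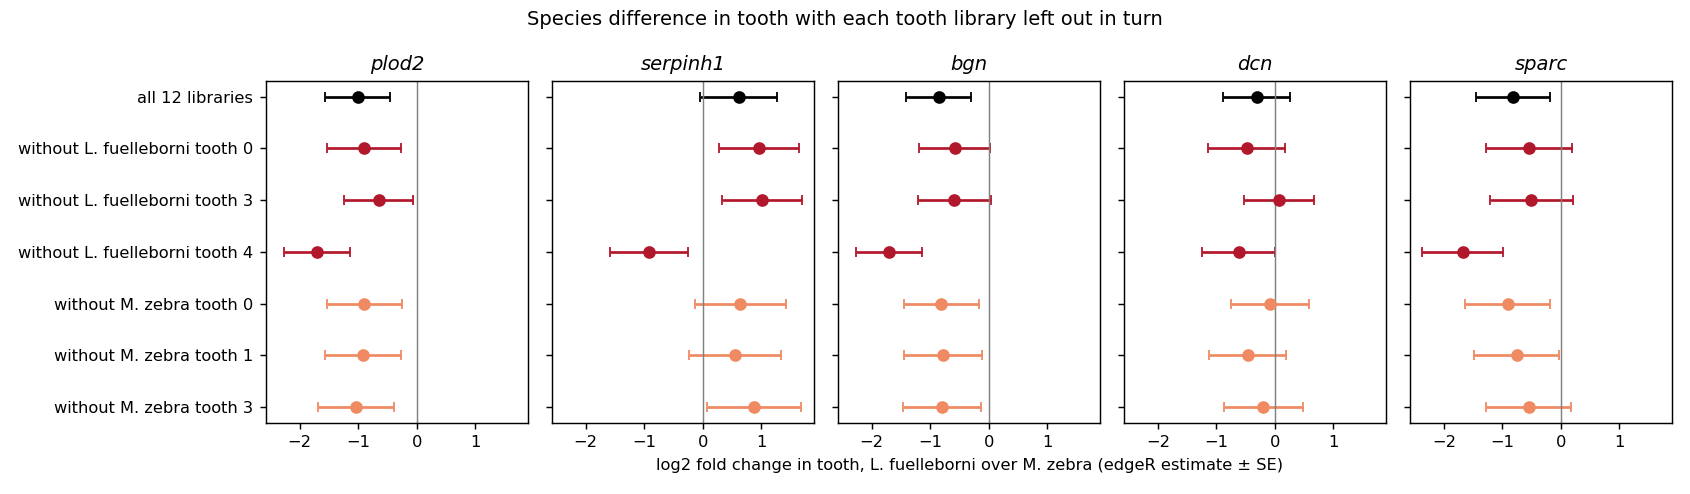
Species difference in tooth for each gene, as log2 fold change of L. fuelleborni over M. zebra with SE, with all 12 libraries and with each tooth library left out in turn. Leaving out L. fuelleborni tooth replicate 4 puts plod2 and bgn at -1.71, sparc at -1.68 and serpinh1 at -0.92, where serpinh1 is at 0.61 with all libraries.

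In taste bud, 3 genes could be compared between the species. The mean was 2.39 ± 4.15 CPM in L. fuelleborni against 10.997 ± 9.74 in M. zebra for serpinh1, 14.8 ± 12.8 against 23.3 ± 21.3 for dcn, and 33.6 ± 25.7 against 150.5 ± 162 for sparc (SD, n = 3 each). Libraries of the species overlapped for all 3 genes, where 22.6% of the genes tested did not overlap. With edgeR none passed (0 of 3, and 0 with DESeq2 and with limma), where 4.29% of all genes tested passed, and 1 had an unadjusted p under 0.05. That was sparc, with a log2FC of -2.12 (SE 0.81, adjusted p = 0.143, and 0.0601 to 0.611 over its alternatives).

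The order of the groups was thus M. zebra tooth, L. fuelleborni tooth, M. zebra taste bud and L. fuelleborni taste bud for dcn and sparc, by mean CPM. For serpinh1 L. fuelleborni tooth came before M. zebra tooth by mean CPM, but after it by median (65.7 against 99.2 CPM). For plod2 and bgn both taste bud groups were at 0. Neighbours of the same tissue did not pass the test of their difference, which could not be made in taste bud for plod2 and bgn. Tooth over taste bud within a species passed for each gene in both species. No tooth group was tested against the taste bud of the other species.

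Because the 5 proteins act on collagen, their counts were set against those of type I collagen, which makes up most of the organic matrix of dentin and bone, in each tooth library. The level of col1a1 and col1a2 together was 8080.5, 5657 and 30119 CPM in L. fuelleborni replicates 0, 3 and 4 and 13855, 23084 and 27855 CPM in M. zebra replicates 0, 1 and 3. Per 1000 type I collagen counts, sparc had 188, 238 and 164 counts in L. fuelleborni and 241, 194 and 214 counts in M. zebra. The highest was 1.47 times the lowest, whereas the CPM of sparc varied 4.43-fold over the same libraries. L. fuelleborni replicate 4, which stood above replicates 0 and 3 of its group in CPM, had the lowest sparc ratio of the 6.

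The other genes varied more relative to type I collagen. The ratio of the highest to the lowest tooth library was 2.05 for bgn (12.9 to 26.5 per 1000), 2.67 for plod2 (12.9 to 34.5), 3.17 for serpinh1 (3.82 to 12.1) and 4.14 for dcn (24.3 to 101). For dcn this was more than its 3.79-fold range in CPM, and its ratio was highest in replicate 0 of each species, at 101 in L. fuelleborni and 70.3 in M. zebra. Per 1000 type I collagen counts serpinh1 averaged 9.70 ± 2.13 in L. fuelleborni and 5.34 ± 1.69 in M. zebra (SD, n = 3 each), and every L. fuelleborni tooth library lay above every M. zebra one. On this scale 11.4% of the genes tested separated the species in one direction or the other, and the other 4 genes overlapped. The serpinh1 ratios of L. fuelleborni replicates 0 and 3, 8.13 and 8.85, rest on 8 and 7 counts and stand near the highest M. zebra ratio of 7.16. These ratios share their denominator and were not tested.

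**Figure D4:**
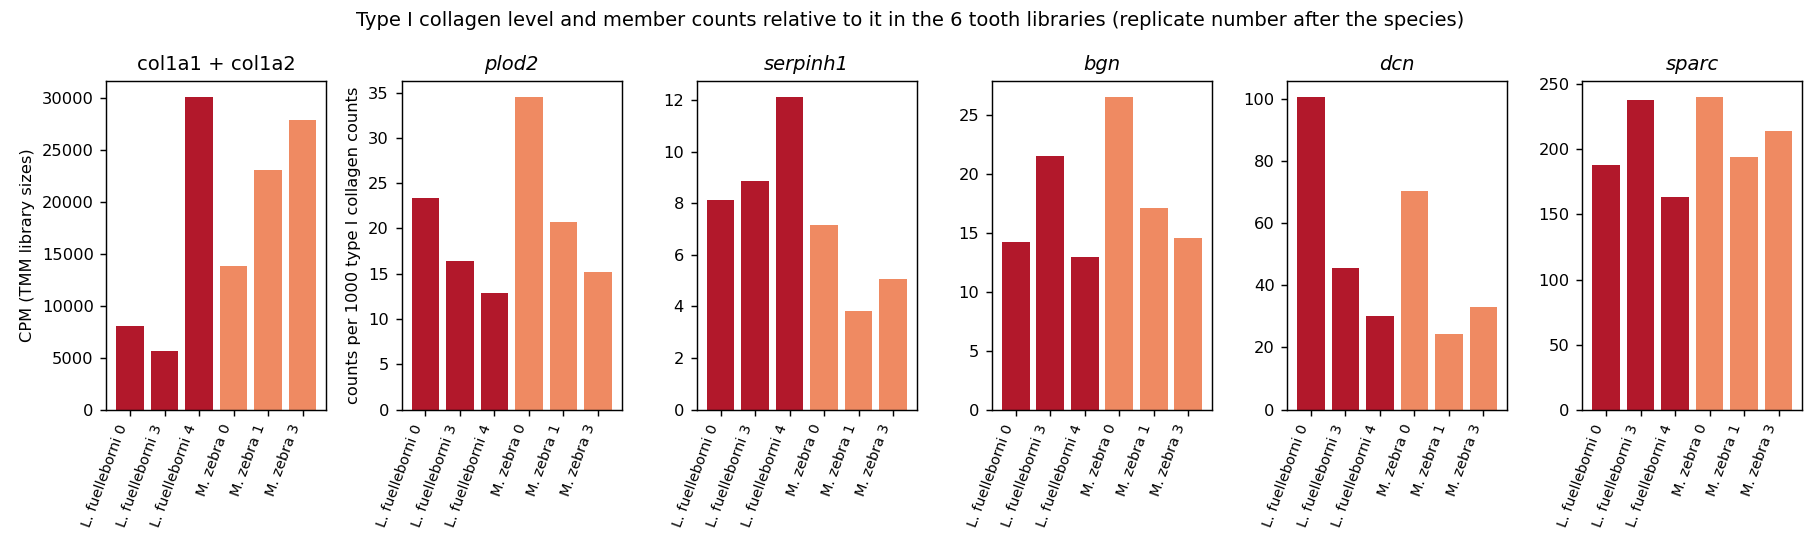
Left panel, summed CPM of col1a1 and col1a2 in the 6 tooth libraries; other panels, counts of each gene per 1000 type I collagen counts. Bars are single libraries, dark for L. fuelleborni and light for M. zebra. Type I collagen runs from 5657 to 30119 CPM, while sparc stays between 164 and 241 per 1000 and dcn runs from 24.3 to 101 per 1000.

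The small taste bud signal was set against the same chains. Over all libraries of a tissue, sparc had 193 counts per 1000 type I collagen counts in tooth and 276 in taste bud, where the value rests on 55 sparc and 199 type I collagen counts. The corresponding dcn ratio was 36.6 in tooth and 65.3 in taste bud. The pooled taste bud value covers a wide spread between libraries. Per 1000 type I collagen counts, sparc stood at 786, 263 and 51.3 in replicates 1, 2 and 4 of L. fuelleborni taste bud, from 11, 5 and 2 sparc counts beside 14, 19 and 39 type I collagen counts. In M. zebra taste bud replicates 1, 2 and 3 it stood at 291, 0 and 412, from 23, 0 and 14 sparc counts beside 79, 14 and 34. L. fuelleborni taste bud replicate 4 had the most mesenchyme marker counts, 30. Markers of fibroblasts and dermal mesenchyme summed to 715 to 3006 CPM in tooth and 4.73 to 215 CPM in taste bud, with 4 of 4 tested markers higher in tooth and col6a3, tcf21 and twist2 at 0 throughout. M. zebra taste bud replicate 2, the library with no sparc and no dcn count, had 852 CPM of keratinocyte markers, the lowest of the 6 taste bud libraries.

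Other cell types that the dissections could hold were counted in the same way. Endothelial markers summed to 85.8 to 302 CPM in tooth and 0 to 28.0 CPM in taste bud, with 1 of 5 markers tested, cldn5, higher in tooth. Osteoclast markers summed to 49.3 to 558 CPM in tooth and 0 to 14.4 CPM in taste bud, with 1 of 6 tested, itgb3, higher in tooth. Chondrocyte markers were near 0 in both tissues, at 3.02 to 37.1 CPM in tooth and 0 to 22.9 CPM in taste bud, with none of 4 tested and matn1 at 0. Muscle markers summed to 163 to 509 CPM in tooth and 202 to 618 CPM in taste bud, where of 2 tested actn3 was lower in tooth and ryr3 did not pass. The part of these cells in the members' levels was not tested.

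The members were then placed among other genes of collagen processing. Of 29 such genes with a row, plod2 and serpinh1 included, 13 were tested. Of these, 10 were higher in tooth, 0 lower and 3 did not pass, with a median log2FC of 3.41 against 0.21 for all genes tested. Of all genes tested, 32.6% were called higher in tooth, the share to set beside this list and those that follow. Prolyl hydroxylation, needed for a stable collagen helix, was represented by p4ha1 with a ratio of 57.1 (interval 15.6 to 475), p4ha2 at 10.8-fold and p4hb, the shared subunit that is also protein disulfide isomerase, at 3.07-fold. Within species p4hb passed in M. zebra (log2FC 2.46, SE 0.65, adjusted p = 0.00353 in edgeR). It did not pass in L. fuelleborni (log2FC 0.92, SE 0.57, adjusted p = 0.208). The interaction term of p4hb did not pass either (-1.54, SE 0.86, adjusted p = 0.675 in edgeR). The gene p3h1 had a ratio of 42.1 (14.2 to 206) and ppib, the cyclophilin that works with it, was 6.09-fold higher. The second lysyl hydroxylase in the table, plod1, had a ratio of 40.4 (6.99 to 1621) from 63 tooth counts against 1, and 24 of its 25 L. fuelleborni tooth counts were in replicate 4. It did not pass with the 3 libraries named above left out (log2FC 3.06, SE 1.68, adjusted p = 0.146 in edgeR), against a log2FC of 4.61 (SE 1.04) with all libraries.

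Among later steps, sec23a, a coat protein of vesicles that leave the endoplasmic reticulum, was 19.3-fold higher. The collagen galactosyltransferase gene colgalt1, which acts on the hydroxylysine made by lysyl hydroxylases, was 2.94-fold higher (adjusted p = 0.00442 in edgeR). Its interaction term did not pass (-0.65, SE 0.81, adjusted p = 0.825 in edgeR). Within species colgalt1 passed in M. zebra (log2FC 1.74, SE 0.59, adjusted p = 0.0183) but not in L. fuelleborni (log2FC 1.09, SE 0.56, adjusted p = 0.130). It did not pass in the same reduced fit (log2FC 0.86, SE 0.37, adjusted p = 0.0617), against a log2FC of 1.42 (SE 0.41) with all libraries. The cargo receptor gene mia3 (adjusted p = 0.156), the transcription factor gene creb3l1 (adjusted p = 0.430) and the lysyl oxidase family gene loxl2 (adjusted p = 0.772) did not pass in edgeR. Of the 16 genes of this list below the filter, 15 had more raw counts in tooth, and 7 of those had none in taste bud. Among these 7 were lox with 26 tooth counts, p3h3 with 27 and p3h4 with 41. Raw counts favour tooth, whose libraries were larger in sum: tmem38b, with 3 counts in each tissue, had a ratio of 0.641. The ratio was 1.10 for adamts14 (12 tooth counts against 7, interval 0.399 to 3.30). The share over all untested features was not counted. The gene crtap, whose product works with p3h1 and ppib, had 50 tooth counts against 1.

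Of 10 small leucine-rich proteoglycan genes with a row, 4 were tested, bgn and dcn among them. All 4 were higher in tooth, against 32.6% of all genes tested, and tooth libraries alone could satisfy the filter. Their median log2FC was 5.99, or 5.85 with bgn at its bound. Lumican (lum), which binds fibrils in cornea and skin, had a ratio of 167 (46.1 to 1386) from 522 tooth counts against 2, and ecm2 was 28.1-fold higher. The 6 untested genes of the list all had more raw counts in tooth, but the share over all untested features was not counted. They ran from fmod with 1 tooth count against 0 to aspn with 77 against 4 taste bud counts. Relative to library sizes the ratio was 1.47 for chad (16 against 7, interval 0.571 to 4.21), and fmod had too few counts for a ratio.

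Of 31 matrix-binding glycoprotein genes with a row, 7 were tested, of which 4 were higher in tooth, 0 lower and 3 did not pass, with a median log2FC of 3.85. Beside sparc these were ltbp1, which binds latent TGF-beta, at 27.7-fold, the SPARC relative fstl1 at 18.6-fold and the microfibril gene fbn1 at 15.3-fold. The genes postn (adjusted p = 0.9498), wisp1 (adjusted p = 0.349) and vtn (adjusted p = 0.0527) did not pass in edgeR. Vitronectin (vtn) passed as higher in tooth under 2 other scalings (size factors of DESeq2, library totals), in DESeq2, and when replicate 4 of L. fuelleborni tooth, replicate 2 of its taste bud or the 3 libraries named above were left out (adjusted p 0.00611 to 0.0489). Of the 24 untested genes 18 had more raw counts in tooth and 2 had fewer, with the same limit from library size. The share over all untested features was not counted here either. For matn3, with 3 tooth counts against 2, the ratio was 0.962. The fibrillar collagen chains col1a1, col1a2, col11a1 and col27a1 were the 4 tested of 6 with a row, and all were higher in tooth with a median log2FC of 5.98.

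General folding genes of the endoplasmic reticulum, which serve all secreted proteins, gave smaller values. Of 20 with a row, 10 were tested, of which 6 were higher in tooth, 1 lower and 3 did not pass, with a median log2FC of 1.42. Of all genes tested, 20.2% were called lower in tooth over both species. Within species, 3 of the 10 were called higher in L. fuelleborni tooth and 6 in M. zebra tooth, against 24.6% and 26.9% of all genes tested. The chaperone gene hyou1 was 5.54-fold higher by summed counts (95 tooth counts against 11), the disulfide isomerase genes pdia6 and pdia4 6.18-fold and 3.69-fold, and ssr2, part of the translocon-associated complex, 7.88-fold. The stress gene ddit3 was lower in tooth, at 0.453 times its taste bud level (53 tooth counts against 75). The calls of hsp90b1 (adjusted p = 0.00841) and xbp1 (adjusted p = 0.0384) in edgeR ended when replicate 4 of L. fuelleborni tooth was left out (adjusted p = 0.0576 for hsp90b1, adjusted p = 0.0958 for xbp1). That of xbp1 also ended on leaving out replicate 2 or 4 of L. fuelleborni taste bud, 0 or 3 of M. zebra tooth, or 2 or 3 of M. zebra taste bud, with an adjusted p of 0.0627 to 0.0898. The lectin chaperone gene canx did not pass (adjusted p = 0.0584 in edgeR) but passed as higher in tooth under both other scalings, in DESeq2, and without replicate 3 of L. fuelleborni tooth, 2 of its taste bud or 1 of M. zebra taste bud, with an adjusted p of 0.0121 to 0.0492. The disulfide isomerase gene pdia3 (adjusted p = 0.315) and ssr1 (adjusted p = 0.727) did not pass either. The call of ddit3 ended with library totals in place of TMM factors (adjusted p = 0.0880) and without a filter (adjusted p = 0.0881), as did that of xbp1 without a filter (adjusted p = 0.0677). With the 3 libraries named above left out, none of hsp90b1, xbp1 and ddit3 passed (adjusted p 0.0935 to 0.1995).

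**Figure D5:**
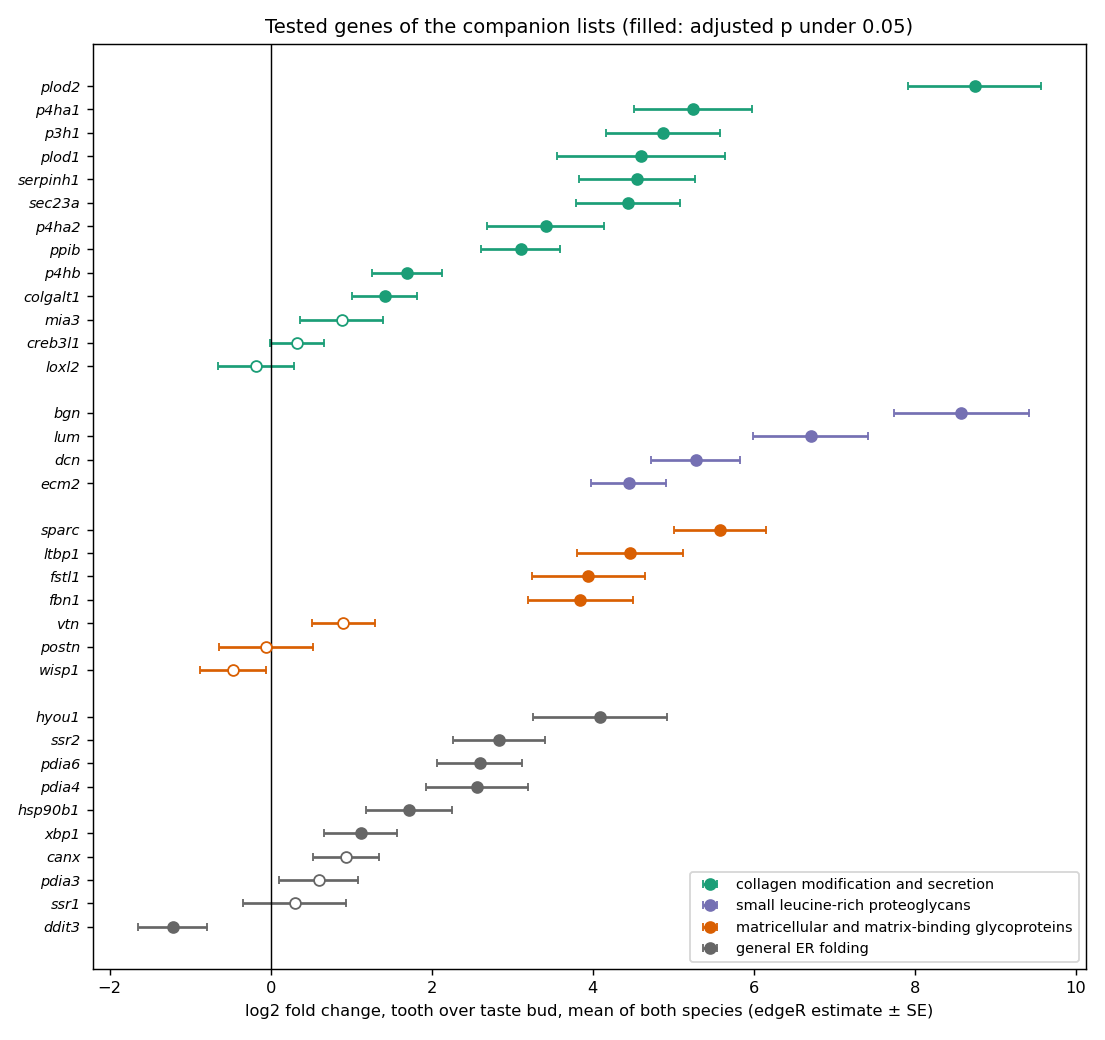
log2 fold change of tooth over taste bud, as mean of both species with SE, for the tested genes of 4 lists. Filled points passed an adjusted p of 0.05. Tested genes of collagen modification run from 8.74 for plod2 to -0.18 for loxl2, and the 4 proteoglycan genes lie between 4.45 and 8.58 (bgn). The values of plod2 and bgn are fits to 0 taste bud counts and are not bounds. That of plod1 rests in part on 0 counts in L. fuelleborni taste bud, and 1 general folding gene had 0 counts in M. zebra taste bud. Within species, hyou1 is at 2.13 (SE 0.70) in L. fuelleborni and 6.06 (SE 1.56) in M. zebra. The general folding genes run from 4.09 for hyou1, which is 5.54-fold higher by summed counts, to -1.22 for ddit3.

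The genes whose pattern was most like that of each member were listed by Pearson's r of log2 CPM over all 12 libraries, as a description. All these points share the tissue step and the library depth, and r is close to 1 for many genes. For plod2 the nearest were egfl6 (r = 0.997), bgn, ifitm5, fam20a and alpl, and for bgn they were plod2 (r = 0.996), alpl, sp7, usp43 and egfl6. Among these are sp7, the osteoblast and odontoblast transcription factor osterix, alpl, the alkaline phosphatase of mineralizing cells, and fam20a, a partner of the kinase for secreted matrix proteins. All of the genes near plod2 and bgn had 0 taste bud counts. The ranking favours such genes, because genes at 0 share the same log2 CPM in each taste bud library. For serpinh1 the nearest were col4a2 (r = 0.971), cldn5, rspo1, fstl1 and scara3, of which col4a2 encodes a basement membrane collagen and cldn5 an endothelial tight junction protein. For dcn they were pcsk5 (r = 0.982), plpp3, slc41a2, crim1 and ctnnb1, and for sparc ctnnb1 (r = 0.979), pdlim4, ap2s1, ltbp1 and dcn.

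Within tooth, after the mean of each species had been subtracted, the members did not all vary together. Over the 6 tooth libraries r was 0.970 between serpinh1 and bgn, 0.962 between serpinh1 and sparc and 0.944 between bgn and sparc. For dcn it was 0.475 with bgn, 0.519 with sparc, 0.639 with serpinh1 and 0.796 with plod2. Each of the genes near serpinh1 over all libraries also followed it within tooth, with r from 0.864 for col4a2 to 0.989 for scara3. Of those near sparc, ltbp1 followed it closely within tooth (r = 0.986), and r was 0.219 for pdlim4 and 0.207 for ap2s1. L. fuelleborni tooth replicate 4 weighs heavily in these 6 points.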

How the data were processed

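The values deposited by the authors are raw read counts for each feature in 12 libraries of replacement tooth and taste bud epithelium, not normalized. Named without roles in the submitters' processing notes are limma 3.20.9, edgeR 3.6.8, HTSeq 0.6.1, SAMtools 0.19 and TopHat2 2.0.9. The genome build, its annotation and how strand was handled are not given in the sources, and both species share 1 set of features. Gene length was not available, so levels are not compared between genes.

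Groups and replicate numbers came from the sample titles. Replicates of a group differed by more than sampling noise (chi-square per degree of freedom 2.81 to 17.6). In R 4.3.3, edgeR 4.0.16 was used with filterByExpr (minimum count 10, minimum total 15), which kept 2962 genes, with TMM factors and a quasi-likelihood model of 4 group means on all libraries. Tests were two-sided and adjusted by Benjamini-Hochberg over all genes tested, with a threshold of 0.05. Contrasts were tooth over taste bud and L. fuelleborni over M. zebra, and their interaction. CPM use TMM library sizes, and log2 CPM a prior count of 2. Folds compare summed counts of the groups relative to their summed TMM library sizes, with 95% exact counting intervals. With 0 counts in a group, the bound uses 3 counts over that group. Alternatives were DESeq2 1.42.0 size factors and test, limma 3.58.1 with and without a replicate block, no filter, library totals, and leaving out libraries or LOC105941146, a feature with up to 26.4% of taste bud counts. The members and the lists were chosen with earlier results of these data known. The text names all members, tested list genes, and per member the 5 named genes of highest r, while untested list genes are examples chosen after their counts were seen. Replicate numbers were not taken to pair tooth and taste bud libraries.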

Additional observations from a re-analysis of the deposited data

How the results depend on the processing

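The number of members called was the same under each alternative for the tissue difference over both species (5 of 5) and in M. zebra (5), for both species differences and for the interaction (0). In L. fuelleborni it was 5 in each but the fit without the 3 libraries of highest ribosomal share (4). With the replicate block in limma the counts were 5, 5, 5, 0, 0 and 0 over the 6 contrasts, as without it. Deviations of same-numbered tooth and taste bud libraries correlated at -0.0075, 0.0524 and 0.236, and the block changed no call of a member. Without a filter 18 of 29 collagen modification genes and 12 of 28 matrix-binding genes with any count passed, in either direction. With the filter these were 10 of 13 and 4 of 7. The fit without a filter tested 20692 genes in place of 2962 and called 3327 of all genes, 72.8% of them higher in tooth. The number called thus rose over all genes too, but the share passing among the added genes was not compared with that in these lists. What raised the number passing was not tested.

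Some called log2FC values moved by over 1.5 times as a fold when a single library was left out. Without L. fuelleborni tooth replicate 4, those within L. fuelleborni were 7.40 for plod2, 4.40 for serpinh1, 7.16 for bgn and 5.36 for sparc, and serpinh1 was 3.76 over both species. Without L. fuelleborni taste bud replicate 4 serpinh1 was 7.86 in that species and 5.49 over both. Without L. fuelleborni taste bud replicate 1, sparc was 6.9997 in L. fuelleborni, and without M. zebra taste bud replicate 1 it was 5.99 in M. zebra. Without L. fuelleborni taste bud replicate 2 dcn was 4.84, and without M. zebra taste bud replicate 3 serpinh1 was 3.81 in M. zebra. All passed. In limma the fitted values of plod2 and bgn were 6.19 and 6.02 over both species (8.74 and 8.58 in edgeR), both passing; fitted values of genes with 0 taste bud counts depend on the tool.

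Signs turned only for values that did not pass. Leaving out 1 library, the species difference in tooth ran from -0.92 to 1.02 for serpinh1 and -0.62 to 0.069 for dcn, and the interaction from -0.21 to 1.02 for dcn. Without the 3 libraries serpinh1 was -0.92 in tooth, and the interaction -0.25 for serpinh1 and -0.47 for dcn. The cause was not tested.

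Over all genes, no filter gave 3327 calls for the tissue difference (1564), 1881 in L. fuelleborni (1142), 124 between species in tooth (45), 229 in taste bud (127) and 2 interactions (0). The fit without the 3 libraries gave 713, 76 and 16 for L. fuelleborni, taste bud and interaction, and limma gave 1 interaction with and without the block. Species calls in tooth were 24 without L. fuelleborni tooth replicate 4 and 71 from tooth libraries alone, and in taste bud 80 and 61 without M. zebra taste bud replicate 1 or 2. Depth limits the taste bud values of serpinh1 and dcn, which rest on 4 and 13 counts.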
